A study of Zea mays with 6 samples.

Results

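The 6 genes described here carry or control the directed flow of auxin between plant cells. They are the auxin efflux carriers PIN1a, PIN1b, PIN1c and PIN1d, the ABCB1-type transporter brachytic2 (br2) and the protein kinase barren inflorescence2 (bif2). They were chosen by their gene identifiers as polar auxin transport genes, by a rule that uses no expression value although earlier results of these data were known, and all 6 were found among the 39283 genes of the deposited table. RNA-seq was performed on coleoptile tips, 3 to 4 mm long, of maize seedlings in the W22 background grown at 28°C. The fdl1/Zmmyb94 mutant group and the wildtype group had 3 replicates each, and per the methods every replicate was a pool of 5 tips taken 3 d after germination. The mutant group carried fdl1-Mu, 1 transposon insertion allele of FUSED LEAVES1 (FDL1), a MYB transcription factor gene for cuticle formation. The mutant tips were picked for a normal look, and the methods speak of homozygous and heterozygous plants without saying which samples held the heterozygous ones.

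Auxin is made in young shoot tissue and the coleoptile tip is its classical source, from which it moves down the organ and directs cell elongation. Import into a cell uses AUX1-type carriers, while export depends on PIN proteins, whose placement on 1 side of the cell gives the flow its direction. ABCB-type pumps add export that is less tied to 1 side. PINOID-type kinases phosphorylate PIN proteins and thereby set the side on which they sit. In maize, bif2 encodes such a kinase and is known from barren tassels and ears, and br2 is known from mutants with short lower internodes.

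The values are FPKM, fragments counted per kilobase of transcript and scaled for library size. How the libraries were scaled is not given in the sources used here. There was 1 value per gene and group, which the authors pooled over the replicates. No spread between replicates therefore stands beside any value, and no test between the groups was made here. A gene is called higher or lower below when the FPKM of the groups differed by at least 1.5-fold and their mean was at least 1. By this rule 10.8% of 20850 genes were higher in the fdl1-labelled tips and 4.90% were lower, 15.7% in either direction, and the median log2 ratio over these genes was 0.02. FDL1 itself (GRMZM2G056407) had an FPKM of 12.7 in the fdl1-labelled tips, against 4.58 in the wildtype-labelled tips. The targeted gene thus did not have a lower FPKM in the group labelled mutant, and its whole-gene FPKM does not tell whether the transcripts held the insertion, so that all directions given here rest on the labels. Because these are bulk samples, fewer cells of a type and less RNA per cell cannot be told apart.

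The 4 efflux carrier genes did not differ in 1 direction between the groups. PIN1b and PIN1a were the most abundant of the 6 genes in both groups, followed by br2. PIN1c was higher and PIN1d lower in the fdl1-labelled tips, PIN1a was nearly level, PIN1b and br2 had ratios above 1 that stayed under 1.5-fold, and bif2 was close to undetected. Of the 5 genes with a mean FPKM of at least 1, 1 was called higher, 1 lower and 3 neither. Over so few genes these counts cannot be set apart from the background shares, and the median log2 ratio of the 5 was 0.29.

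**Figure D1:**
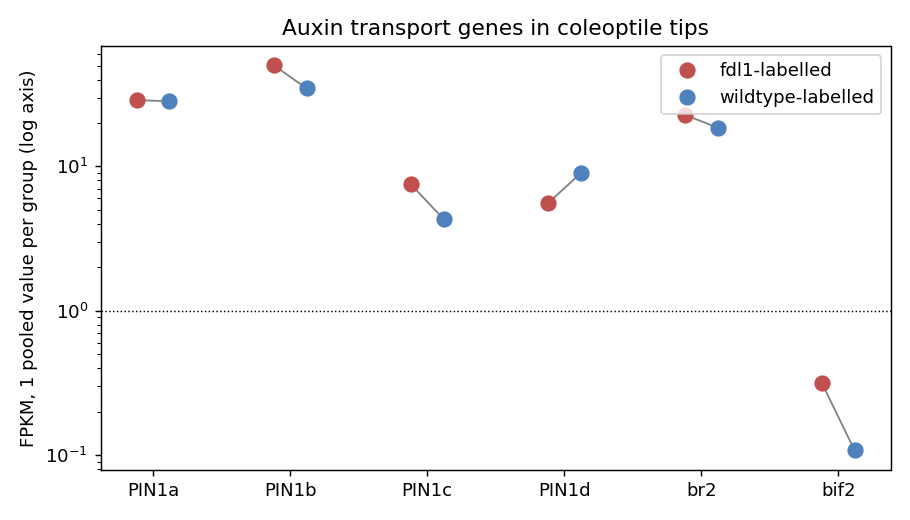
FPKM of the 6 auxin transport genes (vertical log axis), with 1 pooled value per group and a grey line joining the groups of a gene. The dotted line marks an FPKM of 1. PIN1c is higher and PIN1d lower in the fdl1-labelled tips, and bif2 lies below 1 in both groups.

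PIN1b (GRMZM2G074267, chromosome 5 of B73v3, 206777162 to 206780578) encodes an efflux carrier. Its FPKM was 50.3 in the fdl1-labelled tips and 34.8 in the wildtype-labelled tips, a ratio of 1.45 or 0.53 on the log2 scale. It was the most abundant of the 6 genes in either group, and its level exceeded those of 87.4% of the 20850 genes in the fdl1-labelled tips and of 81.2% in the wildtype-labelled tips. In absolute terms it had the largest difference of the 6, at 15.5 FPKM, although its ratio stayed just short of the 1.5-fold line and 12.3% of all genes had a higher one.

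PIN1a (GRMZM2G098643, chromosome 9, 3650989 to 3654397), the maize carrier that has been used most to follow auxin flow, had an FPKM of 28.8 in the fdl1-labelled tips and 28.3 in the wildtype-labelled tips. Its log2 ratio of 0.03 was close to that of the median gene. PIN1b was thus 1.75 times as abundant as PIN1a in the fdl1-labelled tips and 1.23 times in the wildtype-labelled tips.

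PIN1c (GRMZM2G149184, chromosome 4, 182180280 to 182183396) was the carrier gene of the 4 with the highest ratio. Its FPKM was 7.54 in the fdl1-labelled tips and 4.32 in the wildtype-labelled tips, a 1.74-fold difference with a log2 ratio of 0.80, and 6.35% of all genes had a higher log2 ratio. The gene lies at the low end of expression, where differences of this size were more common. Among the 9457 genes with a mean FPKM from 1 to 10, 16.0% were called higher and 7.88% lower, against 6.18% and 2.54% of the 10242 genes from 10 to 100.

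PIN1d (GRMZM2G171702, chromosome 4, 186818289 to 186821067) was alone among the 6 genes in having a lower FPKM in the fdl1-labelled tips in the values as deposited. Its expression in maize is known from the outermost cell layer of meristems. Its FPKM was 5.54 in the fdl1-labelled tips and 8.95 in the wildtype-labelled tips, or 1.61-fold lower, with a log2 ratio of -0.69. A lower log2 ratio was found for 2.98% of all genes. As for PIN1c, the level is low, and 7.88% of the genes with a mean FPKM from 1 to 10 were called lower.

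Among the epidermis genes of the OCL (outer cell layer) homeobox family, ocl4 had an FPKM of 5.86 in the fdl1-labelled tips and 9.48 in the wildtype-labelled tips, a log2 ratio of -0.69 as well. The other matched family members differed by less than 1.5-fold. Their FPKM in the fdl1-labelled and the wildtype-labelled tips was 29.8 and 31.3 for ocl1, 14.4 and 12.4 for ocl3, and 11.6 and 14.5 for ocl5. The summed FPKM of these 4 genes was 61.6 in the fdl1-labelled tips and 67.7 in the wildtype-labelled tips, with 3 of the 4 below their wildtype-labelled value and none at 0. No identifier was matched for ocl2. The part of epidermal cell number in the PIN1d value was not tested.

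**Figure D2:**
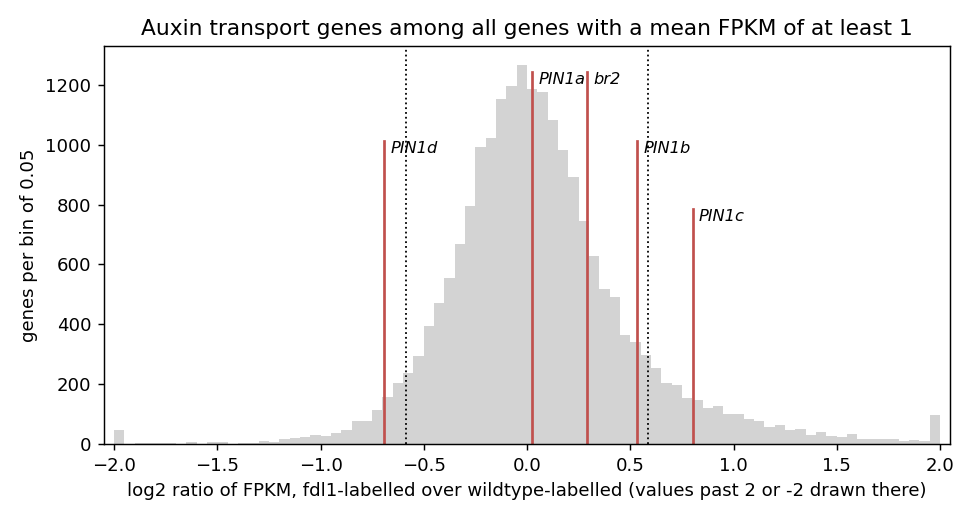
Histogram of the log2 ratio of FPKM, fdl1-labelled over wildtype-labelled tips (horizontal axis), for 20850 genes with a mean FPKM of at least 1, as genes per bin of 0.05 (vertical axis). Red lines mark the 4 efflux carrier genes and br2, with heights set for legibility, and dotted lines mark 1.5-fold. PIN1d lies left of the lower line at -0.69, PIN1c right of the upper line at 0.80, and PIN1b just inside it at 0.53.

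The PIN1c and PIN1d genes are 4.63 Mb apart on the same chromosome and exchanged places in the order of levels. PIN1c was 1.36 times as abundant as PIN1d in the fdl1-labelled tips, while PIN1d was 2.07 times as abundant as PIN1c in the wildtype-labelled tips. The ratio of PIN1c to PIN1d thus differed 2.82-fold between the groups, which restates the values of the 2 genes. Gaps this small between neighbours in the order cannot be judged against a spread between replicates, which the pooled values do not give. The same holds for PIN1a and br2, which differed 1.27-fold in the fdl1-labelled tips and 1.52-fold in the wildtype-labelled tips. How reads that match more than 1 of the related carrier genes were assigned is not given in the sources used here, so that the split among them is less certain than a value for a gene without close relatives.

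The ABCB-type transporter gene br2 (GRMZM2G315375, chromosome 1, 202334824 to 202342008) had an FPKM of 22.8 in the fdl1-labelled tips and 18.6 in the wildtype-labelled tips. The ratio was 1.22, with a log2 ratio of 0.29, and 23.5% of all genes had a higher one, so that the gene lay well within the bulk of the distribution. PIN1b was 2.21 times as abundant as br2 in the fdl1-labelled tips and 1.87 times in the wildtype-labelled tips.

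The kinase gene bif2 (GRMZM2G171822, chromosome 1, 173865554 to 173867297) had an FPKM of 0.317 in the fdl1-labelled tips and 0.108 in the wildtype-labelled tips. Both values were below the minimum of 1, and no direction was read from them. Adding 1 to each FPKM before the division gave a log2 ratio of 0.25, against 1.56 without it. The level of the gene next above it in order was 17.5 times as high in the fdl1-labelled tips, where that gene was PIN1d, and 40.2 times in the wildtype-labelled tips, where it was PIN1c.

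None of the loci of the 6 genes overlapped another locus of the table. Of the 12 nearest genes with a mean FPKM of at least 1, on either side of each of the 6, none differed by 1.5-fold, beside 15.7% of all genes. Over these 12 genes, that result cannot be set apart from the background share. Those beside PIN1d, GRMZM2G171660 and GRMZM2G095141, had log2 ratios of -0.10 and 0.39. Those beside PIN1c, GRMZM2G041959 and GRMZM2G025806, had log2 ratios of 0.56 and -0.19. GRMZM2G041959, with an FPKM of 23.6 in the fdl1-labelled tips and 16.0 in the wildtype-labelled tips, came closest to the 1.5-fold line.

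Of the other PIN carriers in the name table, PIN10a (GRMZM2G126260) had an FPKM of 6.64 in the fdl1-labelled tips and 3.49 in the wildtype-labelled tips. Its log2 ratio of 0.93 was above those of all 4 carriers described above. The level is low as for PIN1c, with a mean FPKM of 5.07, and 16.0% of the genes from 1 to 10 were called higher. PIN8 (GRMZM5G839411) had 2.60 in the fdl1-labelled tips and 1.92 in the wildtype-labelled tips, a log2 ratio of 0.43. PIN5a, PIN5c and PIN9 were below a mean FPKM of 1. Among the 6 PIN genes above that level, PIN1a to PIN1d included, PIN1d alone had a log2 ratio below 0 in the values as deposited, while that of PIN1a, at 0.03, became -0.0045 when both groups were scaled to the same summed FPKM. The importer gene aic1, also called aux1 (GRMZM2G129413), had an FPKM of 32.6 in the fdl1-labelled tips and 39.2 in the wildtype-labelled tips. It lay between PIN1a and PIN1b in level in the fdl1-labelled tips and above both in the wildtype-labelled tips. Its log2 ratio of -0.27 was opposite in sign to those of PIN1b and br2, but none of these ratios reached 1.5-fold.

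For auxin synthesis, 8 genes were listed and 1 of them passed a mean FPKM of 1. This gene, Yucca6 (GRMZM2G019515), of the flavin monooxygenase family that makes auxin from indole-3-pyruvate, had an FPKM of 26.3 in the fdl1-labelled tips and 19.5 in the wildtype-labelled tips, a log2 ratio of 0.43. The related gene spi1 (sparse inflorescence1) stood at 0.590 in the fdl1-labelled tips and 0.542 in the wildtype-labelled tips.

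Auxin response factor genes had ratios on both sides of 1. Of the 16 such (ARF) genes with a mean FPKM of at least 1, none was called higher and 1 lower (6.25%), beside 10.8% and 4.90% of all genes, and their median log2 ratio was -0.01 beside 0.02. The 1 lower gene was ARF4 (GRMZM2G034840), with an FPKM of 3.53 in the fdl1-labelled tips and 6.005 in the wildtype-labelled tips. The most abundant, ARF12 (GRMZM2G437460), had 93.6 in the fdl1-labelled tips and 88.8 in the wildtype-labelled tips, and the highest ratio among them was that of ARF11 (GRMZM2G056120), 0.34 on the log2 scale.

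The Aux/IAA proteins repress ARFs until auxin triggers their breakdown, and several of their genes are induced by auxin. BIF1 (GRMZM2G130953), known like bif2 from barren inflorescences, had an FPKM of 22.7 in the fdl1-labelled tips and 16.1 in the wildtype-labelled tips, and IAA12 (GRMZM2G128421) had 11.9 in the fdl1-labelled tips and 8.93 in the wildtype-labelled tips, both under 1.5-fold. Of 12 further genes named AUX with a number, the naming series to which BIF1 and a rum1-like gene also belong, 3 were called higher (25.0%) and none lower, beside 10.8% and 4.90% of all genes, with a median log2 ratio of 0.19 beside 0.02. The most abundant of them, AUX14 (GRMZM2G077356), had an FPKM of 126.3 in the fdl1-labelled tips and 82.5 in the wildtype-labelled tips. AUX10 (GRMZM2G057067) had the highest log2 ratio, 0.89, and AUX1 (GRMZM2G000158), which is not the importer gene, the lowest, -0.30. The other genes of this list called higher, AUX14 and AUX32, lay just above the 1.5-fold line, with log2 ratios of 0.614 and 0.587. Both fell below the line when the groups were scaled to the same summed FPKM. AUX10 alone of this list was then still called higher, so that the share of 25.0% depended on the scale. Over only 12 genes, that share also cannot be set apart from the 10.8% of all genes.

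Of the GH3 and SAUR families, 1 gene each was matched by symbol, so nothing was read for the families. The GH3 gene (GRMZM2G378106), of the family whose enzymes join auxin to amino acids, had an FPKM of 0.697 in the fdl1-labelled tips and 1.495 in the wildtype-labelled tips. Its mean of 1.10 was just above the minimum of 1, where ratios are least certain. The SAUR gene saur3 (GRMZM2G156470), of a family of small auxin-induced transcripts, had 3.48 in the fdl1-labelled tips and 2.06 in the wildtype-labelled tips. The branching regulators ub3 and ub2 had log2 ratios of 0.38 and -0.18, and BA1 (barren stalk1) was listed at 0 in the fdl1-labelled tips and at 0.0546 in the wildtype-labelled tips. Over all 38 listed genes with a mean FPKM of at least 1, the 6 transport genes left out, 5 were called higher and 2 lower, or 13.2% and 5.26%, beside the 10.8% and 4.90% of all genes, and their median log2 ratio was 0.10 beside 0.02.

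**Figure D3:**
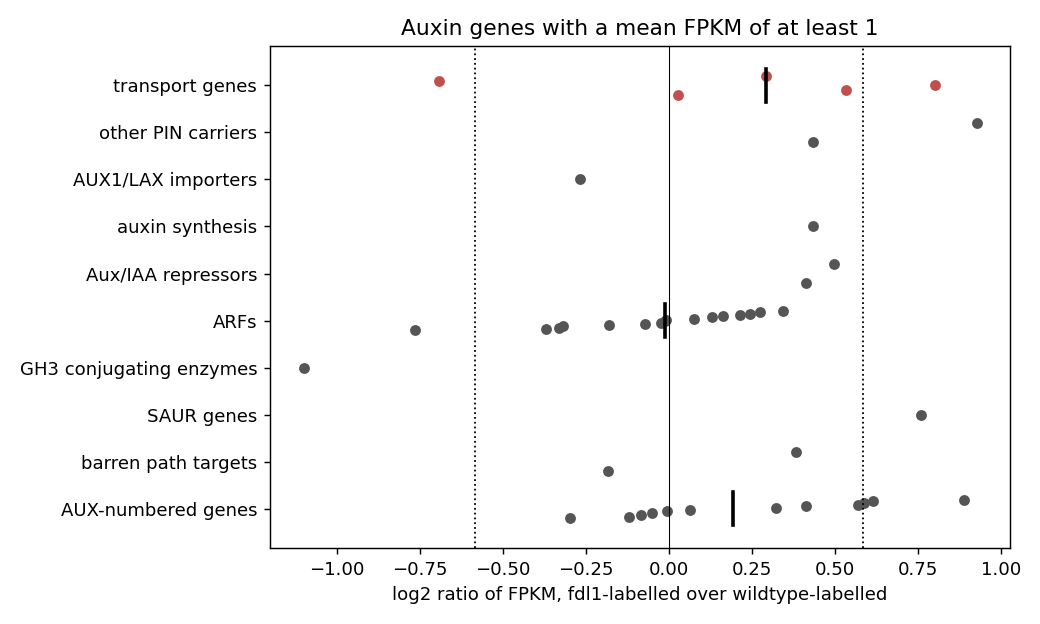
Log2 ratio of FPKM, fdl1-labelled over wildtype-labelled tips (horizontal axis), with 1 point per gene with a mean FPKM of at least 1, in rows by gene list. Black bars mark medians of rows with more than 2 genes, and dotted lines mark 1.5-fold. The 16 ARF genes lie around -0.01, and the 5 transport genes in the top row range between -0.69 and 0.80.

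Genes that mark other parts of a seedling are given with their levels in both groups, and the green leaf genes also with log2 ratios. The KNOX gene kn1, known from meristems, had an FPKM of 9.85 in the fdl1-labelled tips and 9.35 in the wildtype-labelled tips, and the KNOX gene lg3 had 31.3 in the fdl1-labelled tips and 25.4 in the wildtype-labelled tips. Of the seed genes, ole1 had 4.88 in the fdl1-labelled tips and 4.60 in the wildtype-labelled tips, while o2 was listed at 0 in both groups. The symbol pbf1 was matched to identifiers with unlike levels. GRMZM2G146267 had 13.7 in the fdl1-labelled tips and 14.9 in the wildtype-labelled tips. GRMZM2G146283 had 0 in the fdl1-labelled tips and 0.0462 in the wildtype-labelled tips. Which of them is the seed gene was not settled here, so no level of pbf1 was read. The root gene rth3 had 9.16 in the fdl1-labelled tips and 9.47 in the wildtype-labelled tips, and rtcs1 was below 1 in both. The matched seed and root identifiers with an FPKM above 1 differed by less than 1.5-fold. The green leaf genes differed among themselves. Their log2 ratios were 1.23 for ssu1 (4.41 in the fdl1-labelled tips, 1.88 in the wildtype-labelled tips), -1.12 for ppdk1 (7.43 in the fdl1-labelled tips, 16.2 in the wildtype-labelled tips), -0.16 for me3 and -0.02 for the pep1 gene GRMZM5G899080, while the pep1 gene GRMZM2G083841 was below 1 in both groups. The summed FPKM of the matched green leaf genes was 17.4 in the fdl1-labelled tips and 24.1 in the wildtype-labelled tips, with ppdk1 the largest value in both groups. Other listed symbols of these tissues were not matched. A defining marker set for the coleoptile itself was not used here, and the part of these tissues in the carrier values was not tested.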

How the data were processed

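Coleoptile tips of 3 fdl1/Zmmyb94 mutant and 3 wildtype samples were profiled by stranded mRNA sequencing. Per the labels, the authors used Trimmomatic, TopHat2 2.1.1 and Cuffdiff, and per the methods reads were mapped to the B73v3 genome although the plants were W22. The Cuffdiff version, its settings and the gene annotation are not given in the sources used here. The authors deposited 1 table with 1 FPKM value per gene and group, pooled over replicates. Its columns of the authors' own comparison (log2 fold changes, test statistics, p-values, q-values and significance marks) were not used, so that no test, standard error or paired fit is given.

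For each gene with a value above 0 in the fdl1 group and in the wildtype group, the log2 ratio of fdl1 over wildtype was taken with no pseudocount. Genes with a mean FPKM of at least 1 were used as background, and 11 more with a value of 0 in 1 group were left out. A ratio of 1.5-fold counted as higher or lower. FPKM values give no read numbers. Of 1723 genes with values above 0 and below 0.1 in both groups, 5.05% fell into the fullest of 60 bins of the log2 ratio. This share cannot show whether values pooled over replicates hold whole-read steps, so the depth is unknown. Start positions are given 1-based.

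Other auxin genes were taken from symbols and synonyms in the RefSeq gene table of Zm-B73-REFERENCE-NAM-5.0, used for names only, which matched 70.6% of the 20850 genes. It matched 4 of the 6 transport genes. The names PIN1b and PIN1c came with the list of identifiers. No gene was matched by symbol for the lists of other ABCB transporters, PILS carriers or TIR1/AFB receptors. The AUX-numbered genes were added after the name table was read, and an ARF-like symbol in lower case, arf1, was left out as a possible ADP-ribosylation factor. From each list, the genes with the highest and lowest log2 ratio and the highest mean FPKM were named. Also named were AUX32, spi1, BA1 and the genes next to PIN1c and PIN1d, which were picked after their values were seen. The members, lists and the 1.5-fold line were chosen with earlier results of these data known. Planned comparisons of the proteins and promoters were not run because no sequences were at hand. Some listed values are not reported here. DAP-seq data were not analysed here. The code was tested on simulated data. Python 3.11.15, numpy 2.4.6, pandas 2.3.3 and matplotlib 3.10.9 were used.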

Additional observations from a re-analysis of the deposited data

How the results depend on the processing

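No paired analysis was possible because the table holds 1 pooled value per group, and for the same reason no replicate could be left out. The 5 transport genes with a mean FPKM of at least 1 kept their side of the 1.5-fold line under pseudocounts of 0.1 and 1, centring on the median gene and scaling to the same summed FPKM. Over these settings the log2 ratio ran from 0.68 to 0.80 for PIN1c, from -0.72 to -0.60 for PIN1d, from 0.50 to 0.53 for PIN1b and from 0.26 to 0.29 for br2, while that of PIN1a ran from -0.0045 to 0.03 and so changed sign around 0. The bif2 log2 ratio was 0.25 with a pseudocount of 1. The background counts of 2245 higher and 1021 lower genes moved with the line and the filter. They were 5329 and 4154 at 1.2-fold, 837 and 213 at 2-fold, 4398 and 2835 without a filter, 1142 and 460 with a mean FPKM of at least 5, and 566 genes were lower with a pseudocount of 1. For the listed auxin genes, 5 higher and 2 lower became 15 and 7 at 1.2-fold, 0 and 1 at 2-fold, 2 and 0 with a mean FPKM of at least 5, and 3 and 1 with a pseudocount of 1. With the same summed FPKM 3 were higher, AUX14 and AUX32 no longer among them, and without a filter 6 were lower. These counts thus depend on the line, the filter, the scale and the pseudocount, and hold for the stated setting only. The unknown depth and the absent replicate values limit every ratio, most of all at low FPKM. The search for promoter motifs, with a shorter and a longer motif, was not run.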
